A study of Mus musculus with 8 samples.

Results

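Scavenger receptors are cell-surface and secreted proteins of macrophages that bind modified lipoproteins, dying cells, microbes and other polyanionic particles, and carry much of what they bind to lysosomes. They share this range of ligands rather than a common structure, and are grouped into classes by their domains. In tumors they are studied because macrophages take up lipid and cell debris from the tissue around them. The 8 genes described here are *Msr1* and *Marco* of class A, *Cd36* and *Scarb1* of class B, *Cd68*, *Olr1*, the secreted *Cd5l* and the endocytic receptor *Lrp1*. They were taken by gene symbol from the deposited tables, and all 8 were found among 16786 genes with a value in the 7 complete tables.

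RNA was measured in tumor-associated macrophages (TAMs), sorted as CD45+F4/80+ cells from subcutaneous B16 melanomas of C57BL/6 mice on day 14 after injection. The groups were 4 libraries from WT mice (TAM-WT) and 4 from *Colec11*-/- mice (TAM-KO); by the study's methods these were male mice with WT littermates as controls. The comparison asks which genes of these macrophages differ with the loss of collectin-11, a soluble lectin. *Colec11* itself was almost absent, with counts of 1, 4, 0 and 1 among the WT libraries and of 1 in every TAM-KO library, so its level in these cells does not check the genotype. The tables of TAM-WT replicates 1 to 4 summed to 16960268, 17122183, 16906782 and 17280267 expected counts, and those of TAM-KO replicates 2 to 4 to 16225362, 16739028 and 16994308. Over the 12572 genes found in every table the sums ran from 10061535 to 10607640, the highest being that of TAM-KO replicate 1. The table of TAM-KO replicate 1 lacks 4214 of the 16786 genes; *Cd68* and *Lrp1* therefore have no value there, and the values of *Marco*, *Cd36*, *Olr1* and *Cd5l* came from the deposited table of the whole series and entered means but not the test.

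Of the 8 genes, all passed the filter on low counts, and 2 passed an adjusted p of at most 0.05 in edgeR's quasi-likelihood test, against 9.81% of the 12412 genes tested. These were *Marco* and *Olr1*, both lower in TAM-KO, where 5.24% of all genes tested were called lower. Both also changed at least 2-fold, as 2.53% of all genes tested did with an adjusted p of at most 0.05. The median log2 fold change was -0.49 over the 8 genes and 0.0016 over all genes tested, and 7 of the 8 had a value below 0. Over the 7 libraries other than TAM-KO replicate 1, the FPKM values of the groups were apart for 3 of the 8 genes (*Marco*, *Cd36* and *Olr1*), all lower in TAM-KO. Of all genes tested, 24.3% were apart in either direction and 7.36% lower. The 8 genes and the lists below were chosen with earlier results of these data known. A count above the share over all genes is therefore no test of a list. The count of 2 fell to 0 when replicate 3 of TAM-WT, or replicate 2 or 3 of TAM-KO, was left out, to 1 on leaving out replicate 4 of TAM-WT or 1 of TAM-KO, and rose to 4 on leaving out replicate 2 of TAM-WT. For replicate 1 of TAM-KO, the change in count came from the adjustment alone. The count over all genes, 1218, was 151, 77 and 77 without the first 3 of these libraries, 416 and 682 without the next 2, and 2755 without the last. In bulk samples, fewer cells that express a gene and less RNA of it per cell cannot be told apart.

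**Figure D1:**
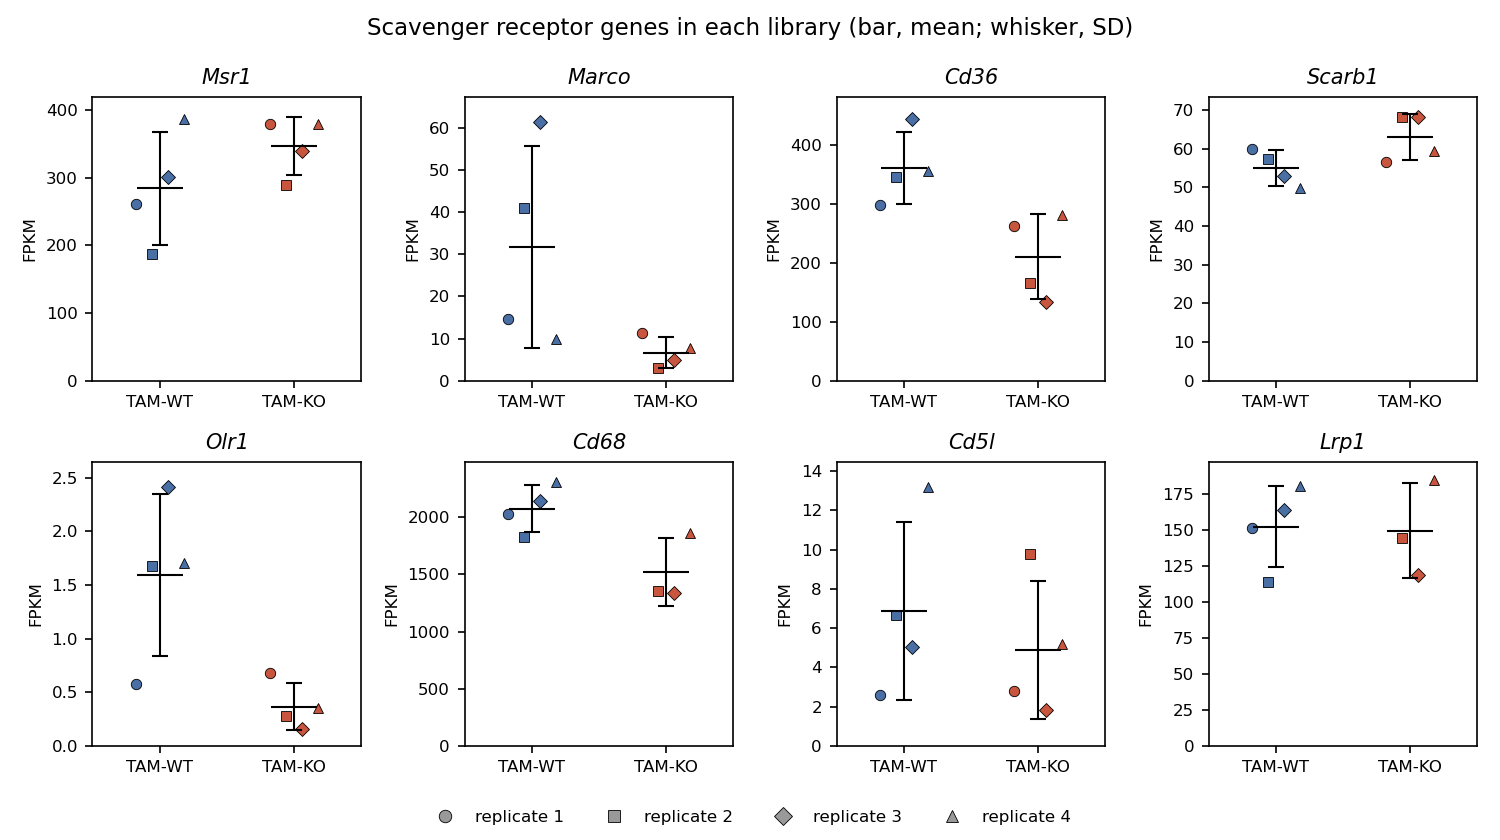
FPKM of the 8 scavenger receptor genes in each library, with 1 panel per gene, TAM-WT in blue, TAM-KO in red, marker shapes for replicate numbers, and the mean and SD of each group. *Cd36* is below its lowest TAM-WT value of 299 FPKM in all 4 TAM-KO libraries, whereas *Marco* and *Olr1* in TAM-KO replicate 1 lie within the TAM-WT range. *Cd68* and *Lrp1* have 3 TAM-KO points.

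*Marco*, a class A receptor with a collagenous stalk that binds bacteria and particles, was at 14.7, 41.1, 61.4 and 9.89 FPKM in TAM-WT replicates 1 to 4. In TAM-KO replicates 1 to 4 it was at 11.3, 2.90, 4.84 and 7.73 FPKM. TAM-WT replicates 2 and 3 stood high, while replicates 1 and 4 lay near TAM-KO replicate 1, which was above the lowest TAM-WT library, so that the groups overlapped there. The mean was 31.8 ± 24.0 against 6.68 ± 3.64 FPKM (SD, n = 4 each), and the log2 fold change in counts was -2.73 ± 0.70 (SE; edgeR adjusted p = 0.0478, fitted with 3 libraries of TAM-KO). The call was near the threshold: it was lost without TAM-WT replicate 3 (edgeR adjusted p = 0.104), without TAM-KO replicates 2 or 3 (0.164 and 0.150), and without TAM-KO replicate 4 (0.0626). TAM-KO replicate 1 holds no value of *Marco* in the test, and on leaving it out the fold change and its error stayed the same, while the adjustment over other genes moved the adjusted p to 0.0583. In an alternative fit with that library filled from the deposited table of the whole series, the log2 fold change was -2.38 ± 0.62 (SE, edgeR adjusted p = 0.0482). It passed with DESeq2 (0.00497) and with limma on log2(FPKM + 0.1) values (0.0487), and just failed with limma voom (0.0507) and on log2(FPKM + 1) values (0.0524).

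*Msr1*, the class A receptor known for taking up oxidized and acetylated lipoproteins, was at 262, 187.5, 301 and 387 FPKM in TAM-WT, against 380, 289, 340 and 379 FPKM in TAM-KO, by replicate number. The groups overlapped, and TAM-WT replicate 2 was the lowest library. Its expected counts were 11915, 8712, 13280 and 15781 in TAM-WT, and 14559, 9947, 12390 and 13503 in TAM-KO. By counts it had a log2 fold change of -0.08 ± 0.19 (SE; edgeR adjusted p = 0.810), whereas on log2(FPKM + 1) values the difference was 0.33 (limma adjusted p = 0.264). The scales differ in the length by which RSEM divides the count of a gene, in how libraries are scaled (the median difference over all genes was 0.089 on that FPKM scale) and in the test, and their parts were not separated. Taken as the count over FPKM, relative to the median gene of the library, the length of *Msr1* was 1.09, 1.10, 1.06 and 0.962 in TAM-WT, against 0.900, 0.857, 0.881 and 0.849 in TAM-KO. All TAM-KO libraries were below all TAM-WT libraries, with a log2 difference of -0.27 ± 0.043 (SE). That difference did not pass over the 5957 genes for which it was computed (limma adjusted p = 0.157), where 0.0336% of genes did. Its adjusted p ran from 0.0419 to 0.392 when 1 library at a time was left out. *Msr1* is known to give transcripts of different length; transcripts were not measured here, so their part in this was not tested.

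**Figure D2:**
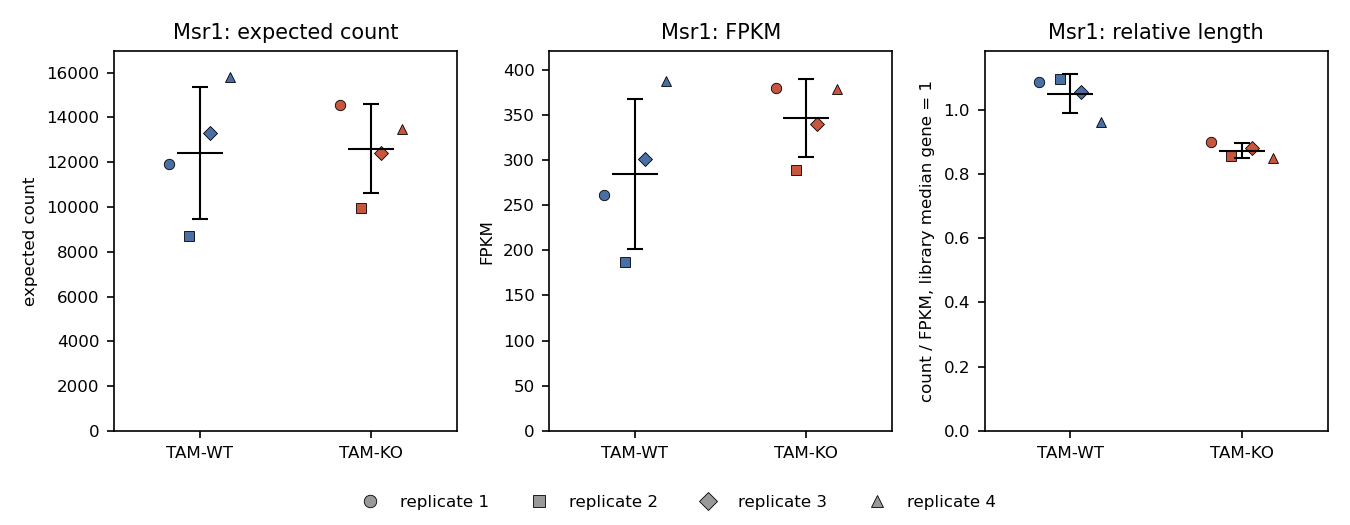
Expected count, FPKM and relative length of *Msr1* in each library, with the mean and SD of each group. Counts overlap between the groups, while relative lengths run from 0.962 to 1.10 in TAM-WT and from 0.849 to 0.900 in TAM-KO.

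*Cd36*, a class B receptor for fatty acids, oxidized lipoproteins and thrombospondin, was at 299, 346, 445 and 356 FPKM in TAM-WT and at 262, 167, 133 and 282 FPKM in TAM-KO. Every TAM-KO library was below every TAM-WT library. The means were 361 ± 60.7 and 211 ± 72.3 FPKM (SD, n = 4 each), with a log2 fold change of -1.01 ± 0.28 (SE; edgeR adjusted p = 0.0582, fitted with 3 libraries of TAM-KO), just short of the threshold. It passed without TAM-WT replicate 2 (0.0465) or TAM-KO replicate 4 (0.0201), and with DESeq2 (0.00421), limma voom (0.00805) and limma on FPKM (0.0435). It was further from the threshold without TAM-WT replicates 3 or 4 (0.144 and 0.112) or TAM-KO replicates 2 or 3 (0.195 and 0.166). With TAM-KO replicate 1 filled from the deposited table of the whole series, its log2 fold change was -0.90 ± 0.26 (SE, edgeR adjusted p = 0.0585). *Scarb1*, the class B receptor for high-density lipoprotein, differed little, at 60.0, 57.3, 52.9 and 49.8 FPKM in TAM-WT and 56.4, 68.1, 68.1 and 59.3 FPKM in TAM-KO. Its groups overlapped, and the log2 fold change was 0.09 ± 0.075 (SE; edgeR adjusted p = 0.456).

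*Cd68*, a lysosomal glycoprotein used as a macrophage marker, was the most abundant of the 8 genes, at 2027, 1825, 2138 and 2312 FPKM in TAM-WT and 1357, 1337 and 1859 FPKM in TAM-KO replicates 2 to 4. TAM-KO replicate 4 lay just above TAM-WT replicate 2, and TAM-KO replicates 2 and 3 lay below all TAM-WT libraries. The log2 fold change of -0.55 ± 0.17 (SE) did not pass (edgeR adjusted p = 0.0732), but it did without TAM-WT replicate 2 (0.0351) or TAM-KO replicate 4 (0.0319), and with DESeq2 (0.0169) and limma voom (0.00763). It did not with limma on log2(FPKM + 1) values (0.0730), and was further from the threshold without TAM-WT replicates 1, 3 or 4 (0.102, 0.177 and 0.161) or TAM-KO replicates 2 or 3 (0.242 and 0.219).

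*Olr1*, which encodes the lectin-like oxidized low-density lipoprotein receptor LOX-1, was low, at 0.58, 1.68, 2.41 and 1.71 FPKM in TAM-WT and 0.68, 0.28, 0.16 and 0.35 FPKM in TAM-KO. These rest on 32, 92, 136 and 93 counts, and on 39, 15, 9 and 17 counts. TAM-WT replicates 2 to 4 were above all TAM-KO libraries, and TAM-WT replicate 1 lay below TAM-KO replicate 1. The log2 fold change was -2.77 ± 0.54 (SE; edgeR adjusted p = 0.0255, fitted with 3 libraries of TAM-KO). The call was lost without TAM-WT replicates 3 or 4 (0.0622 and 0.0540) or without TAM-KO replicates 2 or 3 (0.0975 and 0.0970). With TAM-KO replicate 1 filled from the deposited table of the whole series, the log2 fold change was smaller, at -2.26 ± 0.52 (SE, edgeR adjusted p = 0.0357).

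*Cd5l*, a secreted scavenger protein of tissue macrophages, spread widely within groups, at 2.61, 6.65, 5.03 and 13.2 FPKM in TAM-WT and 2.79, 9.76, 1.83 and 5.17 FPKM in TAM-KO. Its highest library was TAM-WT replicate 4 and its lowest TAM-KO replicate 3, and the groups overlapped (log2 fold change -0.42, SE 0.62, edgeR adjusted p = 0.686). *Lrp1*, an endocytic receptor for apolipoprotein E and protease complexes, was at 151, 114, 164 and 181 FPKM in TAM-WT and 145, 119 and 185 FPKM in TAM-KO replicates 2 to 4. The groups overlapped, with a log2 fold change of -0.14 ± 0.22 (SE; edgeR adjusted p = 0.702). A p above the threshold does not show that the levels are equal.

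In TAM-WT the mean FPKM fell in the order *Cd68*, *Cd36*, *Msr1*, *Lrp1*, *Scarb1*, *Marco*, *Cd5l* and *Olr1*. The ranges of neighbors overlapped for *Cd36* and *Msr1*, with *Cd36* higher in 3 of 4 libraries, for *Scarb1* and *Marco*, and for *Marco* and *Cd5l*. In TAM-KO, *Msr1* stood above *Cd36* in all 4 libraries, at 347 ± 43.1 against 211 ± 72.3 FPKM (SD, n = 4), and their ranges did not overlap. *Cd36* and *Lrp1*, and *Marco* and *Cd5l*, overlapped there.

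By coordinates of RefSeq on GRCm38.p6, the genes lie apart: *Marco* at chr1:120474538-120505024, *Cd5l* at chr3:87357881-87371074, *Cd36* at chr5:17781690-17888959, *Scarb1* at chr5:125277087-125341094, *Olr1* at chr6:129479150-129507350, *Msr1* at chr8:39543232-39642750, *Lrp1* at chr10:127538157-127621148 and *Cd68* at chr11:69664213-69666170. RefSeq promoter entries were matched for 6 of the 8 genes, those of *Marco*, *Cd36*, *Olr1*, *Cd68*, *Cd5l* and *Lrp1*. The 250 bases before the start of *Marco* (chr1:120505025-120505274, minus strand) and *Olr1* (chr6:129507166-129507415, minus strand) are shown because both genes passed the test in the same direction. Capitals mark matches on either strand to the letters TGANTCA (AP-1), GAGGAA (PU.1), AGGTCA (a half-site of nuclear receptors such as the PPARs), TGACNNNGC (NRF2) or TATAAA (the TATA box). The windows of 6.75%, 23.3%, 14.0%, 10.2% and 12.4% of 32851 promoter entries hold them, in that order.
Marco: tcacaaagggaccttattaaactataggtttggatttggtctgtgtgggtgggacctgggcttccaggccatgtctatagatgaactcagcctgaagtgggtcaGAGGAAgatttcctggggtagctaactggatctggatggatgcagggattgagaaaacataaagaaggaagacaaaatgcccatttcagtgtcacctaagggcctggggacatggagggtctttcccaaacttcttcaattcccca
Olr1: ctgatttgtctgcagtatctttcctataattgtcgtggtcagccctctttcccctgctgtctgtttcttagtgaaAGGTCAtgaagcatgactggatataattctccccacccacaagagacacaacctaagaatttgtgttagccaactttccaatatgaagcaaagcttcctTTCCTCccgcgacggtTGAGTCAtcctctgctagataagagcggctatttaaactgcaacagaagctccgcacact
The *Marco* window held 1 match, to the PU.1 letters, and the *Olr1* window held 1 match each to the PU.1, half-site and AP-1 letters. The window of *Olr1* overlaps its own annotated span. Matches are letters in a window and say nothing of binding.

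Among 20 other scavenger receptor genes, 16 were tested and 6 passed, 4 lower and 2 higher in TAM-KO (9.81% of all genes tested passed, and 5.24% were called lower), with a median log2 fold change of -0.01. *Cd163*, the receptor for hemoglobin and haptoglobin, fell by 2.24 on the log2 scale (edgeR adjusted p = 0.00933), and passed in all 8 fits with 1 library left out. The other 5 calls were less stable: *Colec12* was lost without TAM-WT replicate 3 (0.0528) or TAM-KO replicates 2 or 3 (0.0719 and 0.0790), *Mrc1* without the same libraries (0.0659, 0.0719 and 0.0885), and *Scarf2* without TAM-KO replicates 2 or 3 (0.0668 and 0.0588). *Scarf1* was lost without TAM-WT replicates 2, 3 or 4 (0.0536, 0.137 and 0.102) or TAM-KO replicates 2, 3 or 4 (0.140, 0.136 and 0.0871), and *Stab2* without any library but TAM-KO replicate 4 (0.0505 to 0.150). *Colec12*, a class A receptor with a collectin domain, averaged 3.82 ± 0.643 FPKM against 1.35 ± 0.401 (SD, n = 4 each), with no overlap between groups (edgeR adjusted p = 0.0184, fitted with 3 libraries of TAM-KO). *Mrc1*, the mannose receptor, also fitted with 3 libraries of TAM-KO, fell by 1.13 on the log2 scale, and *Stab2*, at under 0.5 FPKM, by 0.92. *Scarf2* and *Scarf1*, class F receptors, rose by 0.97 and 0.57 on the log2 scale; *Scarf2* was above all TAM-WT libraries in all 4 TAM-KO libraries, and *Scarf1* (edgeR adjusted p = 0.0499) in 3 of them. *Stab1*, among the most abundant of the list, was at 323 ± 29.4 FPKM in TAM-WT and 244 ± 93.2 FPKM in TAM-KO (SD, n = 4 each), short of the threshold (edgeR adjusted p = 0.190).

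Genes that handle lipid after uptake showed 4 lower and 0 higher calls among 16 tested, beside 5.24% lower over all genes, and 15 of the 16 had a log2 fold change below 0, as did 6168 of the 12412 genes tested, with a median of -0.31. *Fabp4*, a fatty acid carrier, was at 158, 172, 255 and 242 FPKM in TAM-WT and 86.5, 50.4, 62.6 and 91.8 FPKM in TAM-KO. All TAM-KO libraries were below all TAM-WT libraries (log2 fold change -1.66, SE 0.28, edgeR adjusted p = 0.0194, fitted with 3 libraries of TAM-KO). On the same 3 TAM-KO libraries, *Fabp5*, another carrier, fell by 0.88 and *Lipa*, the lysosomal acid lipase, by 0.55, and on all 4 *Soat1*, which esterifies cholesterol, fell by 0.44 on the log2 scale. None of the 4 calls held when TAM-WT replicate 3 was left out (0.0522 for *Fabp4*, 0.109 for *Fabp5*, 0.0751 for *Lipa*, 0.123 for *Soat1*), TAM-KO replicate 2 (0.0804, 0.144, 0.108 and 0.140) or TAM-KO replicate 3 (0.0835, 0.139, 0.0927 and 0.125). For *Fabp5*, *Lipa* and *Soat1* the call was also lost when TAM-WT replicate 4 was left out (0.0919, 0.0567 and 0.104), and that of *Soat1* when TAM-KO replicate 1 was (0.0721). *Fabp5* has no value of TAM-KO replicate 1 in its test, and its 0.0529 without that library came from the adjustment alone. *Plin2*, the coat protein of lipid droplets, was at 508 ± 97.8 FPKM (SD, n = 4) and 352 ± 101 FPKM (SD, n = 3), short of the threshold (edgeR adjusted p = 0.125).

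Of 12 transcription factors known to act on scavenger receptor genes, 11 were tested and 1 passed, a share near the 9.81% over all genes tested. *Pparg*, a nuclear receptor for fatty acid derivatives that acts on *Cd36* and *Fabp4*, was at 27.4, 24.0, 29.7 and 31.8 FPKM in TAM-WT and 19.6, 19.6, 21.7 and 18.8 FPKM in TAM-KO. Its groups did not overlap (log2 difference -0.60, SE 0.11, edgeR adjusted p = 0.0201), and the call was lost without TAM-WT replicate 3 (0.0609) or TAM-KO replicates 2 or 3 (0.0804 and 0.0588). *Spi1*, which encodes PU.1 and was the most abundant of the list, and *Cebpb*, the next, did not pass (edgeR adjusted p = 0.516 and 0.743).

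Of 16 ligands and partners of the receptors, 3 passed, all lower, where 5.24% of all genes tested were lower, with a median of -0.13. *Plau*, a protease whose inhibitor complexes *Lrp1* clears, fell by 1.10, and its receptor *Plaur* by 0.94 on the log2 scale. *Apoe*, a ligand of *Lrp1* tested on 3 libraries of TAM-KO, was at 497 FPKM in TAM-WT replicate 4, beside 435 to 454 FPKM in TAM-KO, and at 2886 to 3314 FPKM in the other TAM-WT libraries; its call was lost without TAM-WT replicates 1 or 3 (0.0505 and 0.0904) or TAM-KO replicates 2, 3 or 4 (0.130, 0.118 and 0.0659). Leaving out TAM-WT replicate 4 gave a log2 fold change of -2.89 ± 0.13 (SE; edgeR adjusted p = 0.000211), beside -2.55 ± 0.57 (SE; edgeR adjusted p = 0.0339) with it. The *Plau* call was lost without TAM-WT replicate 3 (0.0591) or TAM-KO replicate 3 (0.0776), and that of *Plaur* without TAM-KO replicates 1, 2 or 3 (0.0546, 0.0972 and 0.0885). *Calr*, the most abundant after *Apoe* by the mean over 7 libraries, had a log2 fold change of -0.04 (edgeR adjusted p = 0.824). It was above *Apoe* in TAM-WT replicate 4, at 840 FPKM, and in TAM-KO replicates 2 to 4, at 793 to 836 FPKM.

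**Figure D3:**
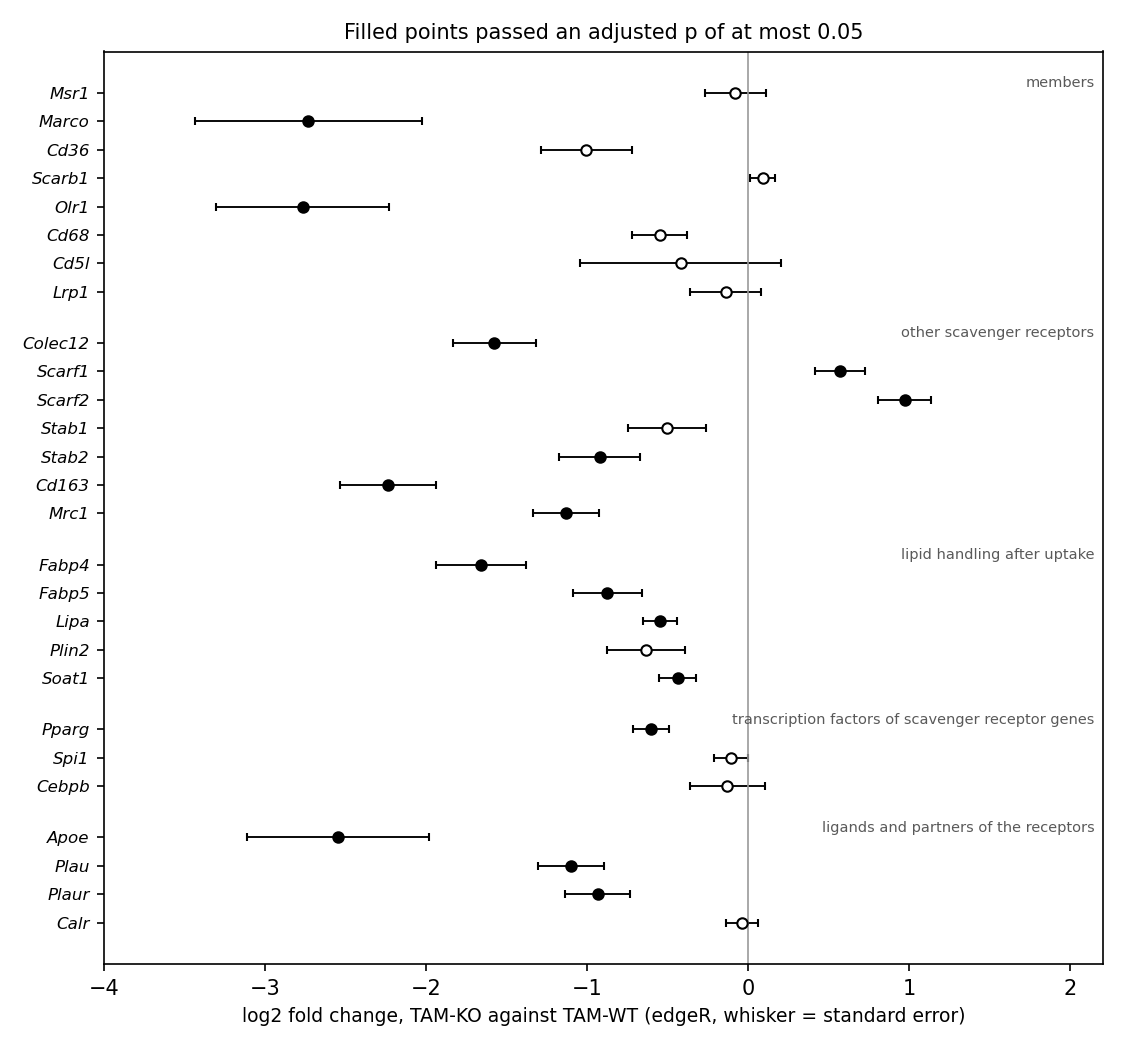
Log2 fold change of TAM-KO against TAM-WT with its standard error from edgeR, for the 8 scavenger receptor genes and the named genes of each pathway list, filled where the adjusted p was at most 0.05. *Marco* and *Olr1* are the filled points among the 8, at -2.73 and -2.77, both fitted without TAM-KO replicate 1.

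The genes most alike to each receptor in log2(FPKM + 1) about its own mean, over 7 libraries and genes with a mean of at least 10 FPKM, were named by their root mean square difference. For *Marco* they were *Ppbp* (0.25), *Cxcl3* (0.41) and *Ednrb* (0.43). *Ppbp* had the same order of the highest libraries, with 62.7 and 145 FPKM in TAM-WT replicates 2 and 3 and at most 31.3 FPKM elsewhere. For *Olr1* they were *Cd83* (0.097), *P2ry10b* (0.10) and *Zfp36* (0.11), at a pseudocount of 1 that shrinks the *Olr1* difference to -0.99, from -2.11 with 0.1, so another pseudocount could name other genes. For *Cd36* they were *Aopep* (0.067), *Ccl9* (0.12) and *Mtmr10* (0.14). *Msr1* was most like *Myo1e*, *Slc30a1* and *Pik3r5*, *Scarb1* like *Mbnl2*, *Zfp598* and *Ddx18*, *Cd68* like *Pafah1b3*, *Lat2* and *Metrnl*, *Lrp1* like *Syne3* and *Itga5*, and *Cd5l*, least closely, like *Glo1* (0.57), *Skil* and *Serpinb8*.

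The labelled cell type was checked by its markers. All 8 macrophage markers had a value above 0 in every library that held them, with *C1qa* the most abundant and *Csf1r* next. *Cd14* was the 1 of them that passed, and was lower in TAM-KO, where 9.81% of all genes tested passed and 5.24% were called lower. RNA of melanoma cells was abundant too, led by *Pmel* and *Dct*: the 7 melanoma genes summed to 2640, 4382, 2010 and 1958 FPKM in TAM-WT, against 4492, 5057, 4742 and 3817 FPKM in TAM-KO. None was at 0, and all 7 had a log2 fold change above 0. Of the 7, 6 had an unadjusted p under 0.05 from edgeR, as did 30.7% of all genes tested. The adjusted threshold was passed by 1, beside 9.81% of all genes tested. Sorting on CD45 and F4/80 is meant to leave out melanoma and lymphoid cells, and how their RNA came into the libraries was not tested. TAM-WT replicate 2 was as high as TAM-KO. There *Marco*, *Cd36* and *Olr1* were above all TAM-KO libraries, and *Msr1*, *Cd68* and *Lrp1* had their lowest TAM-WT value there. The part of melanoma RNA in the results was not tested.

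Of 5 monocyte genes, 3 passed, higher, where 9.81% of all genes tested passed and 568 of the 12412 were called higher. *Chil3* (edgeR adjusted p = 0.144) and *Ccr2* (log2 fold change -0.05, edgeR adjusted p = 0.917) did not. By mean FPKM over 7 libraries *Plac8* and *Ly6c2* led. In TAM-WT the order was *Ccr2*, *Plac8*, *Chil3* and *Ly6c2*, with means of 47.0, 44.4, 36.8 and 34.5 FPKM. The 4 other than *Ccr2* summed to 58.6 to 158 FPKM in TAM-WT and 245 to 393 FPKM in TAM-KO. Of 4 neutrophil genes tested, 1 passed, higher, beside 9.81% of all genes tested. The neutrophil list, led by *Csf3r* and *S100a8*, summed to 21.4 to 32.3 FPKM in TAM-WT and 48.8 to 196 FPKM in TAM-KO. It was highest in TAM-KO replicate 1, with *Ly6g* and *Retnlg* at 0 in some libraries. T cell genes had 0 of 6 past the threshold and 5 at an unadjusted p under 0.05 from edgeR, beside 9.81% and 30.7% of all genes tested. They were led by *Cd3g* and *Cd8a*. *Cd4* has no value in TAM-KO replicate 1 and a log2 fold change of -0.29. Without *Cd4* the list summed to 12 FPKM in TAM-WT replicate 1, 0.69 to 0.86 FPKM in the other TAM-WT libraries and 13.1 to 37.6 FPKM in TAM-KO. With *Cd4*, TAM-WT replicates 2 to 4 were at 2.12 to 2.88 FPKM. NK cell genes had 0 of 3 past the threshold and 2 at an unadjusted p under 0.05 from edgeR, beside the same shares of all genes. *Gzmb* and *Prf1* led by mean FPKM over 7 libraries, and *Gzmb* and *Klrd1* by the TAM-WT mean. *Klrb1c* has no value in TAM-KO replicate 1. Without it the list summed to 0.33 to 11 FPKM in TAM-WT and 7.53 to 36.5 FPKM in TAM-KO. Endothelial (led by *Pecam1* and *Kdr*), fibroblast (*Col1a1* and *Col1a2*), B cell (*Cd79b* and *Cd79a*) and dendritic cell (*Ccr7* and *Cd209a*) genes summed to at most 18.2 FPKM in any of 7 libraries. Past the threshold were 1 dendritic cell gene, *Xcr1*, higher, and 0 in the other 3 lists, beside 9.81% of all genes tested. At an unadjusted p under 0.05 from edgeR were 2 dendritic cell, 1 endothelial, 1 B cell and 0 fibroblast genes, beside 30.7% of all genes tested. Of the 7 dendritic cell genes, 4 had a log2 fold change above 0 and 3 below. *Cd209a* (-1.01, unadjusted p = 0.00898 from edgeR) and *Ccr7* (-0.36) were below 0. The erythroid and platelet list had 0 of 5 past the threshold and 3 at an unadjusted p under 0.05 from edgeR, beside 9.81% and 30.7% of all genes tested. Led by *Pf4* and *Ppbp*, it summed to 1647 to 2439 FPKM in TAM-WT and 772 to 1574 FPKM in TAM-KO, nearly all of it *Pf4*. The platelet gene *Itga2b* went the other way (log2 fold change 0.73, unadjusted p = 0.0268 from edgeR), above all TAM-WT libraries in all 4 TAM-KO libraries. Their part in the results was not tested.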

How the data were processed

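RNA of sorted TAMs was measured in 8 libraries, and the labels gave genotype and replicate. Per the submitters' processing notes, HISAT2 2.0.4, Bowtie2 2.2.5, RSEM 1.2.12 and GRCm38.p6 were used; the study's methods name Bowtie2 for alignment. The expected counts, estimated by RSEM and not normalized, were deposited by the authors, as were FPKM values, which are relative to gene length and mapped reads. The authors' deposited table of the comparison holds 3996 genes with ratios and p-values, none of which was used; its count and FPKM values filled TAM-KO replicate 1. TPM values were not used.

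The table of TAM-KO replicate 1 lacks a run of 5311 genes, and a line that holds parts of 2 genes was skipped. A value was used only where the gene had one in the other 7 tables, and 629 values of TAM-KO replicate 1 were set aside. Genes with a value in all 8 tables (12572) went into a fit of 8 libraries. The results of the rest were taken from a fit of all 16786 genes on the other 7 libraries. Whole-series values equalled those of the sample tables within 0.011 for all 30780 compared counts.

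Rounded counts of all genes were compared with edgeR 4.0.16 in R 4.3.3 (filterByExpr, TMM, quasi-likelihood F test), and p-values were adjusted by Benjamini and Hochberg over 12412 genes. The fit follows an earlier analysis of these data, whose totals were known, so equal totals are not an independent check. The members and lists were also chosen with earlier results of these data known. Named were the 8 genes, list genes past the threshold, the 2 most abundant of each list, and up to 3 of the most alike genes per receptor. Steps were tested on simulated data. The alternatives were DESeq2 1.42.0, its size factors in edgeR, limma 3.58.1 (voom with quality weights, and trend on log2 FPKM with pseudocounts of 1 and 0.1), a filter of 10 counts in every library, no filter, a replicate block, each library left out, the filled library, and other thresholds. Chosen after seeing the data were the relative length of *Msr1* (genes with at least 100 counts and 5 FPKM in every library) and a fit without TAM-WT replicate 2 and TAM-KO replicate 1. The labels name no animal; the study counts as many mice as libraries in each group, so p-values rest on the spread between mice.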

Additional observations from a re-analysis of the deposited data

Results flagged for a closer look

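In groups of 4 libraries, a value was singled out when its gap to the nearest other library took most of the group's range (Dixon's test). This met 12 of 154 groups of named genes and list sums. Among independent, normally distributed groups, about 1 in 20 would be marked. The groups here are not independent, as list sums hold named genes, so the rates cannot be compared. *Apoe* was at 497 FPKM in TAM-WT replicate 4, far below the other TAM-WT libraries. *Plaur* was at 152 FPKM in TAM-WT replicate 3, above the others, and *Scarf1* at 9.67 FPKM in TAM-KO replicate 1, below the others. TAM-WT replicate 1 stood above the other TAM-WT libraries for *Cd3g* (4.58 FPKM), *Cd8a* (2.16 FPKM), *Gzmb* (6.55 FPKM) and *Prf1* (2.49 FPKM), and for the sums of the T cell list (12 FPKM) and NK cell list (11 FPKM). TAM-KO replicate 1 stood above the others for *S100a8* (73.5 FPKM) and for the neutrophil list (196 FPKM). The erythroid and platelet list was highest in TAM-WT replicate 3, at 2439 FPKM, the library in which *Marco* was highest. The 8 scavenger receptor genes had no such value in the groups of 4 examined; the TAM-KO groups of *Cd68* and *Lrp1* have 3 libraries and were not examined.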

How the results depend on the processing

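The count of the 8 receptor genes past the threshold was 2. It was 4 with DESeq2 and at an adjusted p of at most 0.1, 1 with at least 10 counts in every library, where *Olr1* was not tested, and 0 at an adjusted p of at most 0.01. It ran from 0 to 4 with 1 library left out, and was 0 without TAM-WT replicate 3 or TAM-KO replicates 2 or 3. Over all genes the count of 1218 was 2253 with DESeq2, 3625 with limma voom, 314 with a fold change of at least 2, 36 at an adjusted p of at most 0.01 and 2619 at 0.1, and it ran from 77 to 2755 with 1 library left out. It was 2247 without TAM-WT replicate 2 and TAM-KO replicate 1, when *Olr1* (0.0226) and *Cd68* (0.0406) but not *Marco* (0.0511) passed, with 7 other scavenger receptors, and *Msr1* had a log2 fold change of -0.29. Of the other scavenger receptors, 6 passed, 10 with limma voom, 3 with a fold change of at least 2 and 1 at an adjusted p of at most 0.01, and 1 to 6 with 1 library left out. Apart from thresholds and fewer genes or libraries, the cause was not tested.

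Same-numbered libraries deviated from their group means with correlations of -0.32, 0.020, -0.24 and 0.26, and 1 of 4 correlated best with its own number. With 4 pairs, these values cannot tell whether same-numbered libraries share more than the number. With the replicate block 1 of the 8 genes passed, *Olr1*, and 1080 genes in all.

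The log2 fold change of *Msr1* was 0.33 with either pseudocount on FPKM, 0.062 without TAM-WT replicate 4 and 0.013 without TAM-KO replicate 2; that of *Cd5l* had its lowest value, -1.04, when TAM-KO replicate 2 was left out and its highest, 0.13, on leaving out TAM-WT replicate 4. For *Lrp1* these were -0.35 (TAM-KO replicate 4 left out) and 0.0052 (TAM-KO replicate 3). With limma on FPKM, which changes scale and test together, the median of all genes was 0.11 with a pseudocount of 0.1, and the share of calls that were higher was 68.4%, or 69.2% with a pseudocount of 1, beside 46.6% with edgeR and 50.5% with limma voom on counts. The direction of *Marco*, *Cd36*, *Olr1*, *Cd68* and *Scarb1* held in all fits. Depth limits *Olr1*, with as few as 9 counts.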
